A study of Mus musculus with 6 samples.

Results

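The transcripts of 50 genes that run DNA replication and mitosis were followed in mouse Th17 cells with and without Stim1. They were taken by gene symbol, and 50 of 50 members were found among the 23393 gene rows of the deposited table. They comprise 9 regulators of G1, 4 inhibitors of cyclin-dependent kinases (CDKs), 20 genes of the G1/S transition and of DNA replication, and 17 genes of G2 and mitosis. RNA came from naive CD4 T cells of C57BL/6 mice that had been activated for 2 days on plates coated with anti-CD3 and anti-CD28. The medium held IL-23, IL-6 and IL-1b, conditions that yield pathogenic Th17 cells. Control cells, called Stat3C here, had the genotype Stat3CSTOPfl/fl CD4-Cre: Cre under control of the Cd4 gene, which is active from the thymus onward in CD4 and CD8 T cells alike, removes a stop sequence and so switches on Stat3C, an active form of the transcription factor STAT3. Cells called Stim1KO Stat3C had the genotype Stim1fl/fl Stat3CSTOPfl/fl CD4-Cre, so they carried the same active STAT3 and in addition lost the floxed part of Stim1, the calcium sensor of the endoplasmic reticulum. No group without Stat3C was analysed here, so every difference below is one between 2 kinds of Stat3C cells. There were 3 libraries per group. The labels do not say whether the libraries of a group came from separate mice or cultures, so p-values measure the spread between these libraries, which may be technical in part.

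A T cell that has been activated leaves quiescence and divides rapidly. D-type cyclins with CDK4 and CDK6 phosphorylate the retinoblastoma protein RB, which frees E2F factors to switch on cyclin E and the replication genes. The MCM helicase is then loaded on DNA and started, DNA is copied, and cyclin A and cyclin B with CDK1 take the cell into mitosis. The INK4 proteins hold back CDK4 and CDK6, and the CIP/KIP proteins hold back CDK2 and other CDKs. Calcium that enters through STIM1-gated channels is among the signals that drive activated T cells to grow and divide.

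The reads recovered from the deposited values came to between 16009755 and 51347367 per library, fewest in Stim1KO Stat3C replicate 1. Stim1 (chromosome 7, 102267806 to 102437319, plus strand, GRCm38) was read at 1999, 1969 and 1931 normalised counts in the Stat3C libraries. In the Stim1KO Stat3C libraries it was read at 811, 794 and 687, a fall in the direction of the labels (log2 fold change -1.37, SE 0.08, adjusted p = 0.000287). The sum of 7 T cell markers was 50708 to 58265 in Stat3C and 67177 to 72190 in Stim1KO Stat3C. Il17a, the signature cytokine of Th17 cells, was present in every library (409 to 3919). The groups differed in some markers of other cells. Over 8 B cell markers the summed normalised count was 155 to 436 in Stat3C and 32.2 to 63.0 in Stim1KO Stat3C, where Ms4a1 and Fcer2a were at 0 in all 3 libraries. Over 2 markers of CD8 T cells the sum was 277 to 453 against 111 to 159. Over 8 myeloid markers it was 144 to 400 against 349 to 441, most of it Cd68 in every library but Stat3C replicate 2. Stat3C replicate 2 had the highest Fcgr3 (86.1) and Adgre1 (26.7). The mean of Cd68 was 131 in Stat3C and 359 in Stim1KO Stat3C, and that of Itgax was 3.61 and 15.7. The other myeloid markers, Itgam, Cd14, Fcgr3, Lyz2, Csf1r and Adgre1, had lower means in Stim1KO Stat3C, so the list did not rise as a whole. Over 7 NK cell markers the sum was 58.4 to 84.1 against 137 to 385, with Klra8 at 0 in all libraries. Eomes was the largest part in Stim1KO Stat3C, with a mean of 175 against 17.8 in Stat3C. Klrk1 had means of 40.6 in Stat3C and 68.0 in Stim1KO Stat3C, with overlap. In the same order, Ncr1 (3.14 and 3.10), Klrb1c (1.19 and 0) and Klra7 (4.68 and 1.71) were not higher, and Klre1 was at 4.99 and 5.50. The part of these cells in the results below was not tested. Xist was at 8362 and 11549 in replicate 3 of the 2 groups and at most 3.53 in the others, while the Y-linked Ddx3y was at most 0.995 in those 2 libraries and 1008 to 1362 in the others. Replicate 3 thus differs in sex from replicates 1 and 2 in both groups.

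Few of the cell cycle genes passed the test for a difference between the groups, and most of those that did differed by modest amounts. Of 50 members, 6 fell in Stim1KO Stat3C (Cdk4, Ccne1, Mcm3, Mcm6, Plk1 and Cdc20), 3 rose (Cdk6, Cdkn2c and Cdkn2d) and 41 did not pass an adjusted p of 0.05 by limma across all genes. That is 18% of the members, where 13.6% of all 11947 genes tested were called, so the count of calls is near the background. The split by direction was 6 of 50 lower, where 4.96% of all genes were called lower, and 3 of 50 higher, where 8.62% were called higher. All 50 members passed the filter of a mean of at least 10 normalised counts. The calls depended on which libraries were included, while the fold changes moved less. With limma, none of the 50 was called when Stat3C replicate 1 or Stat3C replicate 3 was left out. In these fits 12 and 14 members had an unadjusted p below 0.05, against 20 with all libraries. Over all genes the calls fell as well, from 1623 to 617 and 651. With 1 library left out, the log2 fold change was -0.25 to -0.22 for Cdk4, -0.35 to -0.26 for Mcm3, -0.42 to -0.31 for Ccne1 and 0.98 to 1.34 for Cdkn2c. Without Stim1KO Stat3C replicates 1, 2 and 3 in turn the count was 2, 4 and 3, and without Stat3C replicate 2 it was 16. The count was 8 with edgeR and 15 with DESeq2 on the recovered reads.

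The direction of the members was more uniform than their calls. The log2 fold change (Stim1KO Stat3C minus Stat3C, on log2 of the normalised count plus 1) was below 0 for 39 of 50 members and for 50.2% of all genes. Together the 50 members held 1.15%, 1.14% and 1.16% of all normalised counts in Stat3C, against 1.04%, 1.09% and 1.09% in Stim1KO Stat3C. The groups did not overlap in this share. Gene by gene, all Stim1KO Stat3C libraries lay on 1 side of all Stat3C libraries for 22 of 50 members, 18 on the lower and 4 on the higher side. Over all genes tested this held for 35.6%, with 16.4% on the lower and 19.2% on the higher side. In bulk RNA, fewer cells in a cycle phase and less RNA per cell cannot be told apart.

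**Figure D1:**
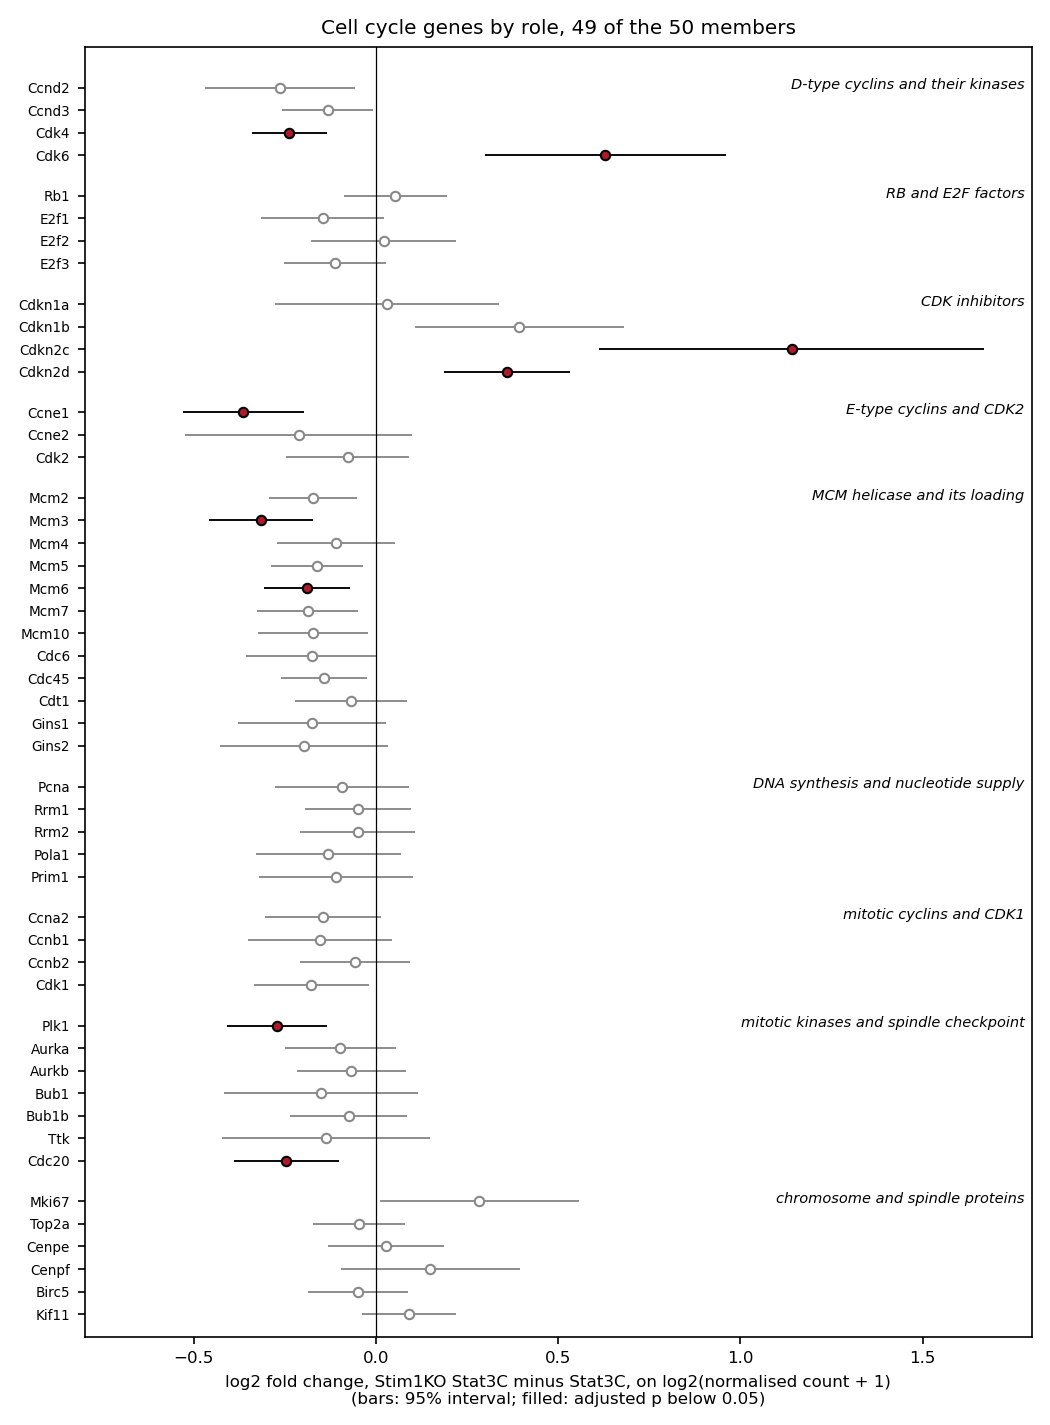
Log2 fold change of 49 members (x axis, Stim1KO Stat3C minus Stat3C on the log2 scale of normalised counts plus 1) by role, with the 95% interval. The 9 filled points passed an adjusted p of 0.05; every G1/S member lies left of 0. Ccnd1, with at most 47.8 normalised counts in any library, is left out.

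Many cell cycle genes are known to be timed by short sequence elements in their promoters. The promoters of 5 members that fell are shown because each holds such elements; that of Ccne1, which also fell, held none of those searched and is not shown. E2F factors bind the E2F motif of replication genes. The cell cycle homology region (CHR) is bound by the DREAM and MuvB complexes at mitotic genes, often near a CCAAT box, the element of NF-Y. The E-box CACGTG is bound by MYC and its relatives. Sequences are RefSeq promoter windows of GRCm38.p6, read 5′ to 3′ on the gene's strand, with the 150 bases before the annotated start or, where named, 30 bases after it, and motif matches on either strand in capitals.
Mcm3, before the start, minus strand, chr1:20820313-20820462: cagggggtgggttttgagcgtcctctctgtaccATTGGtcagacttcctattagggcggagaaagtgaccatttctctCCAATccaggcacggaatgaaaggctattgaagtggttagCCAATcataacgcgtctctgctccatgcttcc
Mcm3, after the start, minus strand, chr1:20820266-20820295: tgGCGGGAAAacttgggaagtTTTGGCGCc
Mcm6, before the start, minus strand, chr1:128359706-128359855: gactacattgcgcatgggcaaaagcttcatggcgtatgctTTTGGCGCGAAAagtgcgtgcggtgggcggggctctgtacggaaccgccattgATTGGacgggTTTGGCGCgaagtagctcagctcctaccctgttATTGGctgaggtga
Plk1, before the start, plus strand, chr7:122159285-122159434: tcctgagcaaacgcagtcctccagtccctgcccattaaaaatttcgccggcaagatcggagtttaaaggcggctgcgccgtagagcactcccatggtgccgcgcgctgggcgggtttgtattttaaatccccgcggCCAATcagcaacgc
Plk1, after the start, plus strand, chr7:122159455-122159484: cagcgccgcgTTTGAAttcggggaggagcg
Cdc20, before the start, minus strand, chr4:118437344-118437493: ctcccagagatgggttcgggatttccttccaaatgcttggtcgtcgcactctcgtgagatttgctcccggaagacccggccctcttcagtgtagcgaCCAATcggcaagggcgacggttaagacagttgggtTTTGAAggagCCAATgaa
Cdk4, before the start, plus strand, chr10:127063385-127063534: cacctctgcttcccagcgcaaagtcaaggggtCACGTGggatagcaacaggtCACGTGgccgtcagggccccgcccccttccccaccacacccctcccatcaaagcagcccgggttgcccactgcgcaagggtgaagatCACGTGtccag

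In these stretches, the capitals of Mcm3 after its start are 2 E2F matches, 1 on each strand, and those before its start are 3 CCAAT boxes. Mcm6 has 3 E2F matches, 2 of which overlap, and 2 CCAAT boxes. Plk1 and Cdc20 each have a CHR, and Cdk4 has 3 E-boxes and none of the other elements.

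Promoter windows, 250 bases before to 50 after the start, were in the RefSeq table for 41 of 50 members. The letters searched on both strands were TTTCGCGC, TTTGGCGC, TTTCCCGC and TTTGCCGC for E2F, TTTGAA for CHR, CCAAT, and CACGTG for the E-box. An E2F match was in 8 of 16 G1/S members (50%), in 1 of 15 G2/M members (6.67%) and in 2.60% of all 27025 genes in the table. A CHR was in 2 of 16 G1/S members (12.5%), in 11 of 15 G2/M members (73.3%) and in 20.2% of all genes. A CCAAT box was in 13 of 16, 14 of 15 and 41.1%. An E-box was in 3 of 6 G1 regulators, 1 of 4 inhibitors, 0 of 16 G1/S members, 1 of 15 G2/M members and 8.09% of all genes. The members with an E-box included Cdk4, which fell, and Cdk6 and Cdkn2c, which rose. None of the 4 inhibitor genes had an E2F match or a CHR. Ccne1, E2f1, Cdkn1a and Birc5 had none of the 4 elements in their windows. A match describes the letters only, and the absence of one says nothing about binding.

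**Figure D2:**
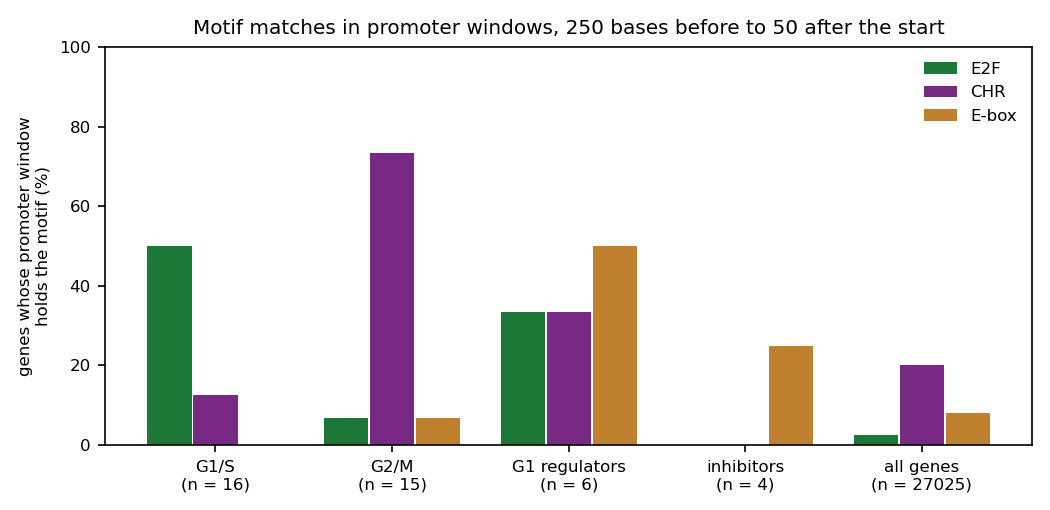
Share of genes (y axis, percent) whose promoter window holds an E2F, CHR or E-box match, for the members by group and for all genes in the RefSeq promoter table. The E2F bar is tallest in the G1/S members (50%) and the CHR bar in the G2/M members (73.3%).

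Among the D-type cyclins and their kinases, Cdk4 fell and Cdk6 rose, while neither Ccnd2 nor Ccnd3 passed the test. Cdk4 (chromosome 10, 127063534 to 127067920, plus strand), a kinase that D-type cyclins activate, had 9645, 9630 and 9790 normalised counts in Stat3C, against 7965, 8315 and 8368 in Stim1KO Stat3C. Its standard error was the smallest of the 9 called members, and the groups did not overlap. The fall was 15.2% of the mean (log2 fold change -0.24, SE 0.04, adjusted p = 0.0131). Cdk6 (chromosome 5, 3341485 to 3531008, plus strand), which phosphorylates the same sites, had 1066, 1536 and 1109 in Stat3C, against 2132, 1826 and 1726 in Stim1KO Stat3C. Stat3C replicate 2 was the highest control and still below all Stim1KO Stat3C libraries (log2 fold change 0.63, SE 0.14, adjusted p = 0.0266). The Stat3C libraries gave a ratio of Cdk6 to Cdk4, each per kilobase of transcript, of 0.0197, 0.0284 and 0.0202, and the Stim1KO Stat3C libraries one of 0.0477, 0.0391 and 0.0367. Its groups did not overlap, but an exact two-sided permutation test gave p = 0.1, which is the smallest p that 3 against 3 libraries allow (adjusted p = 0.2 over the 2 ratios computed, both chosen after the values were seen). The other ratio, Ccnd3 to Ccnd2 per kilobase, was 1.69 ± 0.132 against 1.85 ± 0.0916 (SD, n = 3 each, exact permutation p = 0.2).

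The cyclin genes themselves, given for their roles after their values were seen, did not pass the test. In none of the 3 did the groups overlap. Over all genes tested, 35.6% had groups without overlap, 16.4% on the lower side. Ccnd2, the cyclin that cytokines and mitogens induce in lymphocytes, had 13005, 10946 and 12166 normalised counts in Stat3C, against 10895, 8915 and 10283 in Stim1KO Stat3C. Its highest Stim1KO Stat3C library lay just under the lowest Stat3C library (log2 fold change -0.26, SE 0.09, adjusted p = 0.0885). Ccnd3, the cyclin on which the expansion of thymocytes depends, had 6755, 6648 and 6937 against 6471, 5821 and 6270, also without overlap (-0.13, SE 0.05, adjusted p = 0.141). Ccnd1 was nearly absent, with 6.49, 47.8 and 5.81 against 0, 2.15 and 0.995. All 3 Stim1KO Stat3C values are within what 3 reads amount to in those libraries (2.99 to 4.11), so no fold is given. Its single high value was in Stat3C replicate 2, the library with the highest Fcgr3 and Adgre1, and the part of myeloid cells in it was not tested. Per kilobase of transcript, the mean Stat3C level was 4719 for Cdk4, 3209 for Ccnd3, 1902 for Ccnd2 and 107 for Cdk6, each step larger than the SDs of its neighbours (43.0 to 164 for the first 3 genes and 22.5 for Cdk6).

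**Figure D3:**
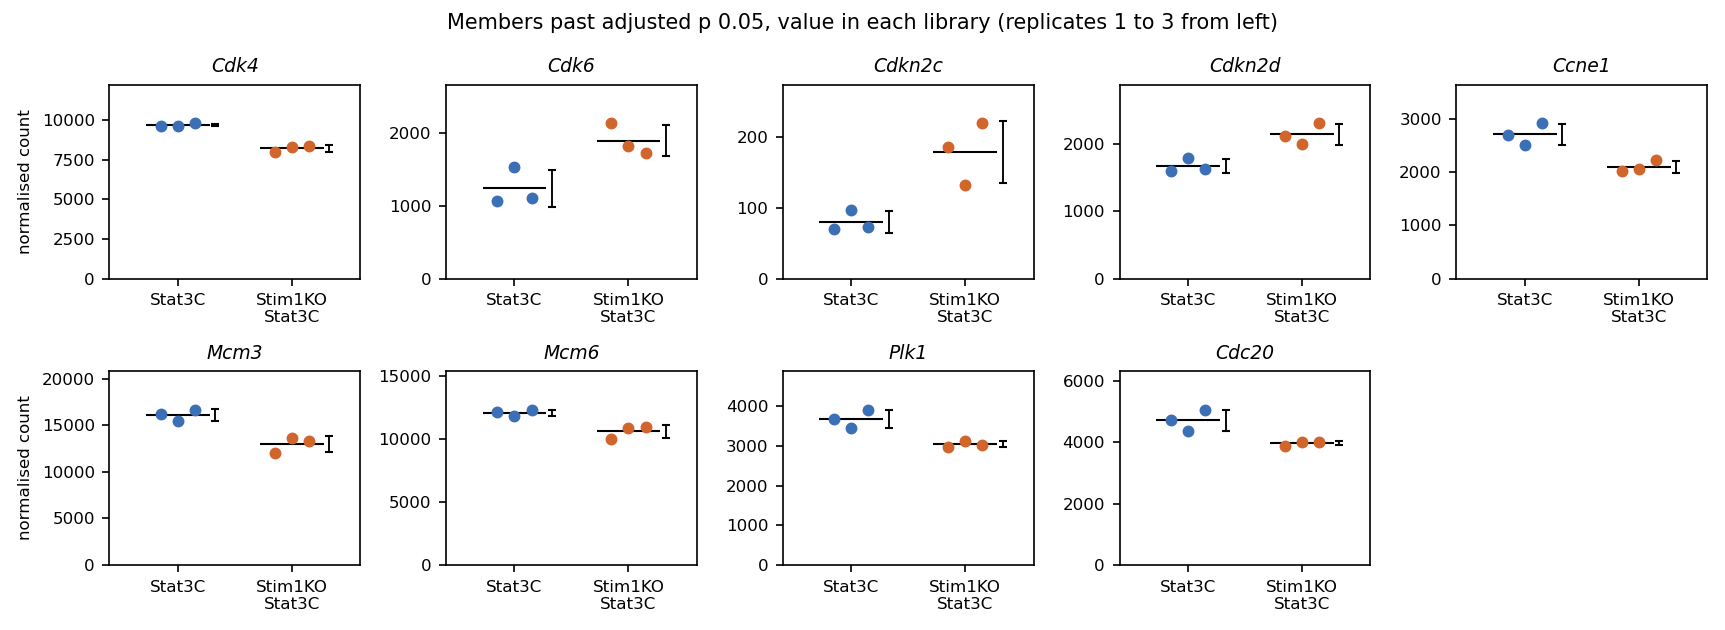
Normalised count (y axis, from 0) of the 9 members past an adjusted p of 0.05, with a point per library, the group mean as a line and the SD as a bar. In each panel the 3 Stat3C points and the 3 Stim1KO Stat3C points do not overlap; Cdk6, Cdkn2c and Cdkn2d are higher in Stim1KO Stat3C and the other 6 genes lower.

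Both INK4 inhibitor genes among the members rose. Cdkn2c (chromosome 4, 109660876 to 109667189, minus strand), which encodes an inhibitor of CDK4 and CDK6, had 69.7, 97.7 and 72.7 normalised counts in Stat3C, against 186, 132 and 220 in Stim1KO Stat3C. The lowest Stim1KO Stat3C library exceeded the highest Stat3C library, and the means differed 2.24-fold, the largest called change among the members (log2 fold change 1.14, SE 0.23, adjusted p = 0.0167). Cdkn2d (chromosome 9, 21288410 to 21291407, minus strand), an inhibitor of the same kinases, had 1590, 1789 and 1620 against 2120, 1993 and 2303. It rose by 28.3% of the mean in non-overlapping groups (0.36, SE 0.08, adjusted p = 0.0195). Per kilobase, Cdkn2d was far above Cdkn2c in both groups (1171 against 32.4 in Stat3C, 1503 against 72.6 in Stim1KO Stat3C).

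The other INK4 genes, which belong to the wider list of CDK and E2F control and sit side by side on chromosome 4, were low. Cdkn2a (chromosome 4, 89274471 to 89294653, minus strand) had 12.1, 32.2 and 13.6 in Stat3C, against 129, 62.3 and 55.7 in Stim1KO Stat3C, and rose (log2 fold change 2.07, SE 0.46, adjusted p = 0.0251). Its count joins the transcript of the INK4 protein and that of the p53 activator ARF, which share exons. Cdkn2b (chromosome 4, 89306299 to 89311039, minus strand), named after its values were seen, had 4.33, 7.05 and 0.969 against 39.7, 9.66 and 13.9, without overlap and short of the threshold (adjusted p = 0.118). Cdkn2a and Cdkn2b come from another list than Cdkn2c and Cdkn2d, so no count is drawn over the 4 genes. Over all genes, 8.62% were called higher and 19.2% were higher without overlap.

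The CIP/KIP members did not pass. Cdkn1b, which restrains CDK2 in resting T cells, had 449, 547 and 509 against 764, 649 and 573, without overlap (log2 fold change 0.39, SE 0.12, adjusted p = 0.0726). Cdkn1a, the inhibitor that p53 induces, had 5799, 5787 and 5938 in Stat3C, against 7268, 4749 and 6151 in Stim1KO Stat3C. Its Stim1KO Stat3C libraries lay on both sides of the narrow Stat3C range (0.03, 95% interval -0.28 to 0.34, adjusted p = 0.895). Per kilobase Cdkn1a was nonetheless the most abundant of these inhibitor transcripts, at 2808 in Stat3C.

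**Figure D4:**
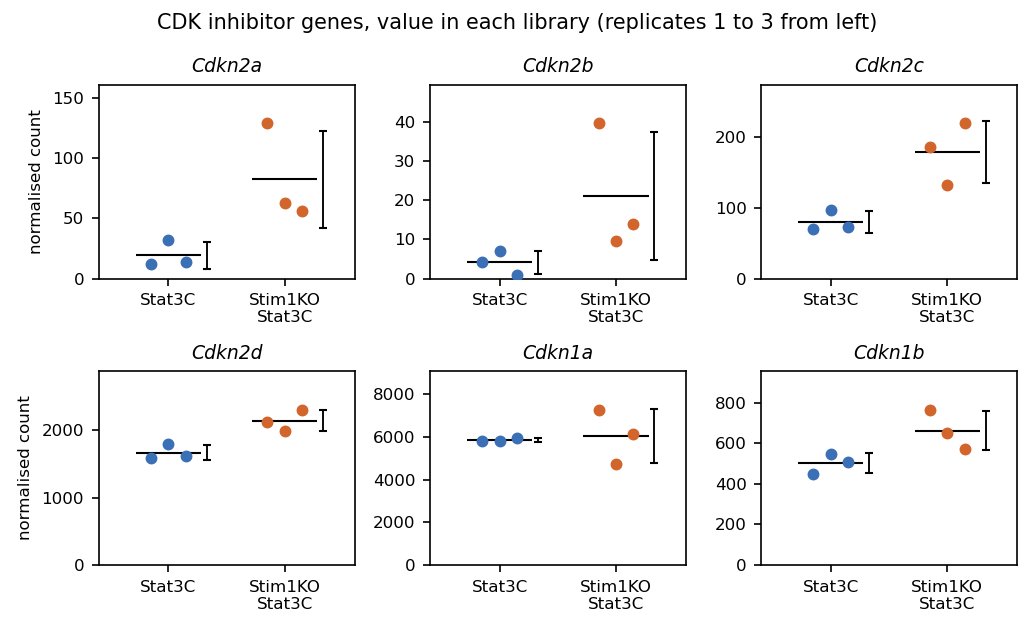
Normalised count (y axis, from 0, own scale per gene) of 6 CDK inhibitor genes in each library, with the group mean as a line and the SD as a bar. Cdkn2a, Cdkn2b, Cdkn2c, Cdkn2d and Cdkn1b have all 3 Stim1KO Stat3C points above the Stat3C points, and Cdkn1a does not. Over all genes tested, 19.2% were higher without overlap. The genes shown come from different lists, and Cdkn2b was named after its values were seen.

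RB and the E2F factors that it binds showed no called change, with an unadjusted p above 0.05 for all 4 by limma. E2f2, an activating E2F, had 1624, 1710 and 1778 normalised counts in Stat3C, against 1849, 1836 and 1522 in Stim1KO Stat3C (log2 fold change 0.02, SE 0.09, 95% interval -0.18 to 0.22, adjusted p = 0.885), and the fold change took the other sign in 4 alternative settings. Rb1 itself had 1220, 1296 and 1349 against 1343, 1334 and 1329 (0.05, SE 0.06, 95% interval -0.09 to 0.19, adjusted p = 0.591). E2f1, which drives entry into S phase, and E2f3 had lower values without overlap, 1125 ± 83.8 against 1014 ± 32.3 and 1162 ± 32.9 against 1074 ± 30.9 (SD, n = 3, adjusted p = 0.217 and 0.247).

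Cyclin E is the partner of CDK2 at the start of S phase, and of its 2 genes Ccne1 fell. Ccne1 (chromosome 7, 38097984 to 38107534, minus strand) had 2700, 2508 and 2919 normalised counts in Stat3C, against 2028, 2051 and 2228 in Stim1KO Stat3C. The groups did not overlap, and the fall was 22.4% of the mean (log2 fold change -0.36, SE 0.07, adjusted p = 0.0156). Ccne2 had 812, 642 and 857 against 579, 656 and 755, in which the groups overlapped (-0.21, 95% interval -0.52 to 0.10, adjusted p = 0.323). Cdk2, the kinase of both cyclins, had 2229, 2221 and 2368 against 1957, 2191 and 2324, also with overlap (-0.08, SE 0.07, adjusted p = 0.5).

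The MCM genes and those that load and start the helicase were all lower in the mean in Stim1KO Stat3C, and 2 of the 12 passed the test. The MCM2 to MCM7 proteins form the hexamer that unwinds DNA at a replication fork. Mcm3 (chromosome 1, 20802968 to 20820312, minus strand) had 16263, 15464 and 16678 normalised counts in Stat3C, against 11997, 13690 and 13274 in Stim1KO Stat3C. Its fall of 19.5% of the mean was the largest of the 12 (log2 fold change -0.31, SE 0.06, adjusted p = 0.0157). Mcm6 (chromosome 1, 128331590 to 128359664, minus strand) had 12101, 11818 and 12309 against 10018, 10833 and 10947, with no overlap (-0.19, SE 0.05, adjusted p = 0.0474). This call stands at the edge of the threshold and was lost in 11 of 23 alternative settings, while the Mcm3 call was lost in 4.

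Of the other MCM genes, Mcm2, Mcm5, Mcm7 and Mcm10 had log2 fold changes of -0.19 to -0.16 in non-overlapping groups, with adjusted p from 0.0649 to 0.119. For Mcm2 the values were 8182, 8251 and 8048 against 6921, 7669 and 7133. Mcm4 overlapped (-0.11, adjusted p = 0.328). Among the loading and start factors, Cdc45 and Gins1, which belong to the active helicase, did not overlap (2331 ± 21.2 against 2111 ± 61.1, and 496 ± 36.0 against 438 ± 10.4), and Gins2, the loader Cdc6 and its partner Cdt1 did (-0.20, -0.18 and -0.07). Over the 12 genes the median log2 fold change was -0.17, and over all genes tested it was 0.00 (-0.00115 before rounding). In 8 of the 12 all Stim1KO Stat3C libraries lay under all Stat3C libraries, which held for 16.4% of all genes. These genes were measured in the same 6 libraries, so they are not independent observations.

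The genes of DNA synthesis and of nucleotide supply showed smaller differences, and none of 5 passed by limma, at an unadjusted p of 0.05 either. Pcna, the sliding clamp of the replicative polymerases, had 13794, 13112 and 14080 normalised counts in Stat3C, against 11406, 12953 and 14206 in Stim1KO Stat3C. Replicate 1 of Stim1KO Stat3C was the lowest and replicate 3 the highest of all 6 libraries (log2 fold change -0.09, SE 0.08, 95% interval -0.28 to 0.09, adjusted p = 0.461). Rrm1, the large subunit of ribonucleotide reductase, had 13719, 13105 and 13594 against 11891, 13498 and 13726 (-0.05, SE 0.06, adjusted p = 0.628). Rrm1 begins 4.38 kb downstream of the end of Stim1 on the same strand of chromosome 7. The 95% interval of Rrm1 was -0.20 to 0.10, and any effect of the Stim1 deletion on this neighbour was not tested. Rrm2, Pola1 and Prim1, the second reductase subunit and 2 subunits of the primase complex, had log2 fold changes of -0.05, -0.13 and -0.11, all with overlap. Per kilobase, Pcna (9000 in Stat3C) was the most abundant of all 50 members, followed by Mcm3 (5323).

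The mitotic cyclins and CDK1 had lower means in Stim1KO Stat3C but none of the 4 passed. By limma, Cdk1 was the only 1 of them with an unadjusted p below 0.05. Ccnb1, whose product starts mitosis with CDK1, had 6008, 5627 and 6642 normalised counts in Stat3C, against 4916, 5613 and 5906 in Stim1KO Stat3C, with overlap (log2 fold change -0.15, SE 0.09, 95% interval -0.35 to 0.04, adjusted p = 0.258). Ccna2, which acts in S phase and in G2, had 5969, 5638 and 6289 against 4951, 5559 and 5688 (-0.14, SE 0.07, adjusted p = 0.194). Cdk1 did not overlap, with 4265 ± 282 against 3771 ± 228 (SD, n = 3, -0.18, adjusted p = 0.125). Ccnb2 stood at 1680 ± 108 and 1612 ± 42.7 (-0.06, adjusted p = 0.582).

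Among the mitotic kinases and the spindle checkpoint, Plk1 and Cdc20 fell and 5 genes did not pass. Plk1 (chromosome 7, 122159439 to 122169873, plus strand), a kinase needed for entry into mitosis and for the spindle, had 3670, 3457 and 3908 normalised counts in Stat3C, against 2976, 3132 and 3021 in Stim1KO Stat3C. The 3 Stim1KO Stat3C values were close together and all lower, a fall of 17.3% of the mean (log2 fold change -0.27, SE 0.06, adjusted p = 0.0230). Cdc20 (chromosome 4, 118432901 to 118437352, minus strand), which activates the ubiquitin ligase that ends metaphase, had 4738, 4364 and 5056 against 3892, 4011 and 4016. It fell by 15.8% of the mean, likewise with no overlap (-0.25, SE 0.06, adjusted p = 0.0375). The Aurora kinase genes Aurka and Aurkb and the checkpoint genes Bub1, Bub1b and Ttk had log2 fold changes of -0.15 to -0.07, all with overlap and adjusted p from 0.347 to 0.510. Bub1 was at 1090 in Stim1KO Stat3C replicate 1 and at 1431 to 1511 in the other 5 libraries.

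Among the chromosome and spindle proteins 2 genes had a log2 fold change below 0 and 4 above, and none of the 6 passed (limma, 1 with an unadjusted p below 0.05). Top2a, the topoisomerase that untangles sister chromatids, had 21046, 21757 and 20877 normalised counts in Stat3C, against 19383, 21769 and 20545 in Stim1KO Stat3C, the highest raw level of all members (log2 fold change -0.05, SE 0.06, 95% interval -0.17 to 0.08, adjusted p = 0.596). Mki67, the proliferation antigen Ki-67, had 10046, 11889 and 8620 against 11358, 13773 and 11874. Its mean was thus higher, not lower, in Stim1KO Stat3C, with Stat3C replicate 2 inside the Stim1KO Stat3C range (0.28, SE 0.12, 95% interval 0.01 to 0.56, adjusted p = 0.149). Without that library Mki67 passed the test, as it did in 3 of 23 alternative settings. Cenpf, Cenpe and Kif11, a kinetochore protein, a kinetochore motor and the spindle motor Eg5, had log2 fold changes of 0.15, 0.03 and 0.09, and Birc5, which encodes survivin, -0.05. Mki67 and Cenpf have the longest transcripts of the G2/M members (10.1 and 11.1 kb). Across the 17 G2/M members, longer transcripts went with higher fold changes (Spearman rho 0.50), whereas across the 20 G1/S members (-0.06) and all 11242 genes with a length (0.14) the relation was weak. These are descriptions across genes from the same libraries, and the part of RNA quality in them was not tested.

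Set side by side, the G1/S members had a median log2 fold change of -0.17 with 20 of 20 below 0, the G2/M members -0.07 with 13 of 17 below 0, and the inhibitors 0.38 with 0 of 4 below 0. Calls were 3 of 20 (15%), 2 of 17 (11.8%) and 2 of 4, where 13.6% of all genes were called, so the counts for G1/S and G2/M are near the background. No test was made of the difference between these groups. In each library the median distance of the 20 G1/S members from the Stat3C mean was 0.01, -0.06 and 0.05 in Stat3C, against -0.24, -0.12 and -0.09 in Stim1KO Stat3C, on the log2 scale. For the G2/M members it was 0.00 (-0.00132 before rounding), -0.02 and 0.05 against -0.19, -0.03 and -0.03. For the inhibitors it was -0.11, 0.12 and -0.01 against 0.48, 0.32 and 0.33. For none of these 3 sets did the library medians of the groups overlap. The nearest medians, Stim1KO Stat3C against Stat3C, were -0.09 and -0.06 for the G1/S members and 0.32 and 0.12 for the inhibitors. For the G2/M members they were -0.03 and -0.02. There, Stim1KO Stat3C replicates 2 and 3 lay within 0.02 of the lowest Stat3C library, and replicate 1 lay further off.

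**Figure D5:**
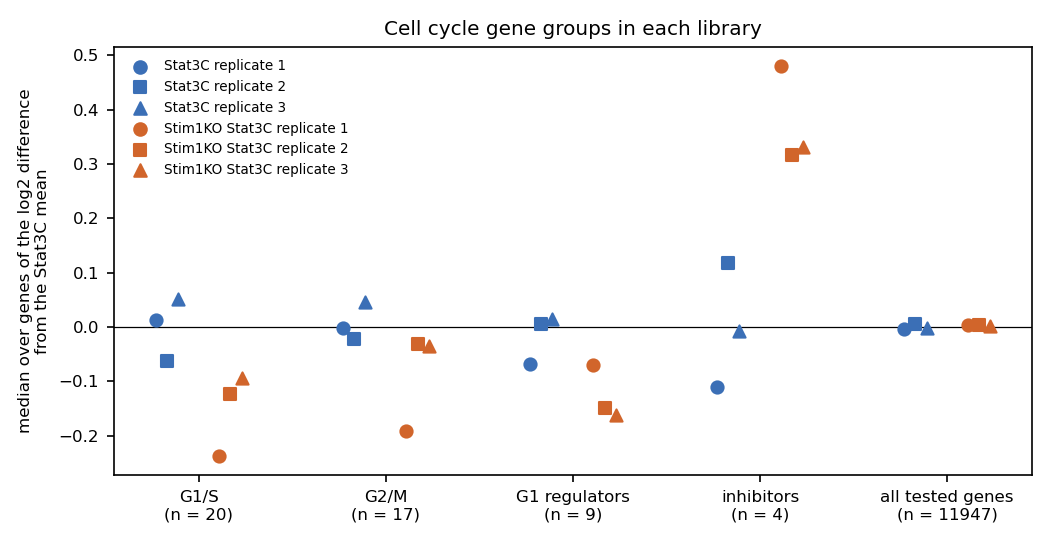
Median log2 difference from the Stat3C mean (y axis) over the genes of each group, with a point per library. Stim1KO Stat3C replicate 1 is lowest for the G1/S (-0.24) and G2/M members (-0.19) and highest for the inhibitors (0.48); the median of all tested genes stays near 0 in every library.

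Stim1KO Stat3C replicate 1 contributed most to these differences. It was the lowest of the 6 libraries for 16 of 20 G1/S members and 13 of 17 G2/M members, but for 22.9% of all tested genes. At the other end, Stat3C replicate 3 was the highest for 14 of 20 G1/S members and for 19.6% of all genes. Replicate 1 was also the library with the fewest reads. Without it, 19 of 20 G1/S members kept a log2 fold change below 0, the exception being Rrm1 (0.02), and Cdk4 and Mcm3 alone kept their calls. The median of the G1/S members was -0.18 to -0.13 with 1 library left out, and that of the G2/M members -0.13 to -0.03.

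In the wider lists, which hold other genes of the same processes, 15 of 197 genes (7.61%) were called, against 13.6% of all genes. Of 52 other replication genes 5 fell and 1 rose (11.5%), of 68 other mitosis genes 3 fell and none rose (4.41%), of 32 genes of CDK and E2F control 1 fell and 3 rose (12.5%), of 23 DNA damage checkpoint genes 1 fell (4.35%) and of 22 p53 targets 1 fell (4.55%). Their median log2 fold changes were -0.09, -0.02, 0.02, -0.07 and 0.06 in that order. Among replication genes, Rfc3, a subunit of the clamp loader, rose (1903 ± 73.6 to 2512 ± 160, log2 fold change 0.40, adjusted p = 0.00757). Dut, the enzyme that removes dUTP, fell (6553 ± 318 to 5457 ± 196, adjusted p = 0.0195), as did the nuclease and helicase gene Dna2 (1559 ± 68.9 to 1257 ± 60.2, adjusted p = 0.0201) and the polymerase delta subunit gene Pold2 (2767 ± 182 to 2179 ± 162, adjusted p = 0.0220). The remaining 2 that fell, Pole2 and Ung, had log2 fold changes of -0.39 and -0.38. Of the 52 replication genes 40 had a log2 fold change below 0, where 50.2% of all genes did. In 14 of the 52 the groups did not overlap, a smaller share than the 35.6% of all genes. By direction, 13 of the 52 were lower without overlap, where 16.4% of all genes were, and 1 was higher, where 19.2% were.

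In the mitosis list the calls were Cenpw, a centromere protein (600 ± 68.9 to 400 ± 28.4, log2 fold change -0.58, adjusted p = 0.0131), the mitotic kinase gene Pbk (673 ± 19.5 to 471 ± 57.1) and Ube2s, which extends ubiquitin chains for the anaphase-promoting complex (10070 ± 409 to 8505 ± 79.8). Of its 68 genes 35 were below 0, with 33 above. In the control list Btg1, an antiproliferative gene of resting lymphocytes, rose from 5448, 7212 and 6242 to 10212, 9487 and 11086 normalised counts (log2 fold change 0.71, SE 0.10, adjusted p = 0.0049). Rbl2, which encodes the RB relative p130 of the DREAM complex, rose from 1585, 1775 and 1518 to 2529, 1962 and 2655 (0.54, SE 0.12, adjusted p = 0.0219). Cdc25a, the phosphatase that activates CDK2, fell from 3034 ± 260 to 2487 ± 109 (-0.28, adjusted p = 0.0409). The Btg1 call held in all 23 alternative settings run, that of Rbl2 in 17 and that of Cdc25a in 14. The checkpoint call was the histone gene H2afx (2386 ± 102 to 1909 ± 95.9), and the p53 target was Ei24 (3241 ± 105 to 2704 ± 105). None of the p53 targets rose at the threshold, by limma, and 8 of the 22 had an unadjusted p below 0.05 in either direction.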

How the data were processed

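Per the labels' protocols, 6 poly(A) libraries were made with a stranded kit from 100 ng of RNA each. The tools listed in the submitters' processing notes, with the build mm10, are HTSeq 0.11.1, TopHat2 2.1.1 and DESeq2 1.22.2. No source used here states gene models, filters or the strand setting of the counting, so overlapping genes (on the opposite strand, Tspan31 at Cdk4, Gm17590 at Cdk6, Gm44985 at Plk1 and Elovl1 at Cdc20) and pseudogene copies are uncertain.

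The deposited values are a normalised signal: for each library, reads per gene over 1 common size factor. In every library 100% of the values above 0 were whole multiples of 1 step within 0.01, and dividing by the step gave whole reads, on which edgeR called 1507 genes. A value of 0 allows up to 3 reads, 1.30 to 4.11 normalised counts, counting error only. Of 23420 rows, 27 with names turned into dates were left out.

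The test was limma 3.58.1 (R 4.3.3) with a trended variance prior, two-sided, on the log2 of each value plus 1, with 6 libraries and no covariate, for 11947 genes with a mean of at least 10, with Benjamini-Hochberg adjustment over these genes at 0.05. It was also run on simulated counts with an assumed spread. The planted changes were larger than those of most called members, so that run does not cover changes as small as theirs. Intervals are at 95%. Alternatives changed the pseudocount, filter, scaling and variance prior, used edgeR 4.0.16, DESeq2 1.42.0 and voom on recovered reads, a covariate from Xist and library weights, and left out each library. Values per kilobase use the longest principal transcript in GENCODE M21 (GRCm38), from which positions were also taken.

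The members and gene lists were chosen with earlier results of these data known. Members past the threshold are given in full. Where fewer than 2 of a role passed, its 2 members of highest mean are given too. Up to 4 called genes per wider list are named, and further ones complete small counts.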

Additional observations from a re-analysis of the deposited data

How the results depend on the processing

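The 9 called members kept the sign of their fold change in all 23 alternatives, and their calls were lost in 3 (Cdk4) to 11 (Mcm6) of them. With 1 library left out, the calls ranged from 0 to 16 over the members, 0 to 5 higher and 0 to 11 lower, 0 to 6 lower in G1/S, 0 to 3 lower in G2/M, 0 to 3 inhibitors higher, and 2 to 7 higher and 1 to 18 lower in the wider lists. With limma without a variance trend 1 member was called, 1 higher (Cdkn2c) and 0 lower, with 0 in G1/S, 0 in G2/M and 1 inhibitor, although 10 were lower and 4 higher at an unadjusted p below 0.05. The wider lists then had 2 higher and 2 lower. DESeq2 called 15 members, 11 of them lower and 6 of these in G1/S. Library quality weights gave 22 members, 5 higher and 17 lower, 11 of them in G1/S, and 11 higher and 31 lower genes in the wider lists. Quantile normalisation gave 6 lower G1/S members, and voom 1 lower G2/M member. Of 2 alternatives chosen after the data were seen, edgeR without Stim1KO Stat3C replicate 3 called 2 members, 0 higher and 2 lower, 1 in G1/S, 0 in G2/M and 0 inhibitors, with 2 higher genes in the wider lists, where 20 members had an unadjusted p below 0.05. Leaving out both Stat3C replicate 2 and Stim1KO Stat3C replicate 1 gave 5 lower G1/S members and 9 higher genes in the wider lists. Over all tested genes, 1623 were called, 827 without the trend, 3959 with quality weights and 617 to 2899 with 1 library left out. The cause of these moves was not tested. Fewer libraries give fewer degrees of freedom. Among the members named with full values, signs turned for 4 that were not called, E2f2 (-0.027 to 0.11 with 1 library left out, -0.024 without both), Rrm1 (-0.088 to 0.015), Top2a (0.013 without both) and Cdkn1a (-0.11 to 0.19, -0.076 with quality weights, -0.12 without both). Between 19 and 20 of 20 G1/S members stayed below 0 in all alternatives. No paired analysis was possible because replicates were numbered in accession order and the labels pair no libraries. Of the cell cycle genes named, reads limit only Ccnd1 and Cdkn2b. Several B cell, myeloid and NK cell markers, Itgax, Ncr1 and Klrb1c among them, were also within 3 reads in some libraries.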
